A study of Homo sapiens with 12 samples.

Results

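The genes described here are 45 genes of the translation machinery, chosen by a fixed list of symbols out of the 61163 genes in the count tables. They comprise 4 factors of start site recognition (EIF1, EIF1AX, EIF5, EIF5B), 3 subunits of EIF2, 5 subunits of EIF2B, 13 subunits of EIF3, 8 genes of the EIF4 group, 6 elongation genes, 2 poly(A)-binding proteins, 2 termination factors, and TPT1 and RACK1. All 45 symbols were found in both tables. They were listed by function and not by a measured value, although earlier results of these data were known when the list was made.

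RNA was sequenced from HEK293T, an established line of human embryonic kidney origin that carries a viral large T antigen. Wild-type cells (HEK WT) were compared with cells carrying an HNRNPUL1 knock-out (HEK UL1 KO) that had been made with Cas9 and 2 guides, against exons 2 and 3. HNRNPUL1 encodes hnRNP UL1, an RNA-binding protein, and whether the knock-out line is a single clone is not given in the sources used here. None of the cells used for sequencing received a treatment according to the labels. From each genotype a nucleolar (NO) fraction and a cytoplasmic-nuclear (CN) fraction were taken, with 3 replicates in each of the 4 groups. Nothing in the labels says that the replicates came from separate cultures, so p-values measure the spread between these libraries, which may be technical.

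Translation starts when EIF2, loaded with the initiator tRNA and kept active by the exchange factor EIF2B, joins the small ribosomal subunit with EIF1, EIF1A, EIF5 and the large scaffold EIF3. The cap-binding EIF4 proteins bring the mRNA to this complex, the EEF1 and EEF2 proteins then drive elongation, and ETF1 with GSPT1 releases the finished chain. Many of these mRNAs begin with a cytosine followed by a run of pyrimidines, the terminal oligopyrimidine (TOP) motif, through which their translation follows growth signals. Several of the genes also hold small nucleolar RNAs (snoRNAs), which guide the modification of rRNA in the nucleolus and are usually cut out of the host transcript.

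The start sites are shown because they distinguish members that otherwise encode parts of the same machine. In the RefSeq promoter set (GRCh38.p14), 35 of the 45 genes had an entry. Each line gives the 10 bases before the annotated start and the 15 bases from it, 5′ to 3′ on the strand of the gene, with the first 5 transcribed bases in capitals. The windows lie at chr6:73521018-73521042 on the minus strand (EEF1A1), chr19:3985449-3985473 on the minus strand (EEF2), chr13:45341169-45341193 on the minus strand (TPT1), chr5:181243892-181243916 on the minus strand (RACK1), chr11:32583821-32583845 on the plus strand (EIF3M), chr3:186783567-186783591 on the plus strand (EIF4A2), chr14:103334227-103334251 on the plus strand (EIF5) and chr11:10807982-10808006 on the minus strand (EIF4G2).
EEF1A1: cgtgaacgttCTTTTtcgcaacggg
EEF2: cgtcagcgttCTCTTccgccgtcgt
TPT1: ctgagtcggcCTTTTccgcccgctc
RACK1: gcttttctctCTCTCtttcactgca
EIF3M: gcccagttccCTTTTccggtcggcg
EIF4A2: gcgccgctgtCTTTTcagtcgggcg
EIF5: ggcgttgttcAGTCAgagcgagaac
EIF4G2: tgtcggaagcACTTCcctaacttgc

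The first 6 of these genes start with C and at least 4 pyrimidines, whereas EIF5 and EIF4G2 start with A. This pattern, read on the transcribed strand at the annotated start only, was present in 6 of the 8 genes with an entry that are known as TOP mRNAs (75%) and in 5 of the 27 others (18.5%), namely EIF2S3, EIF3D, EIF3K, EIF3M and EIF4A2. Over all 27305 promoters it was present in 4.04%, and over the 15843 promoters of protein-coding genes in 4.60%. EEF1B2 and EEF1G, both known as TOP mRNAs, had an A at the annotated start, which says only that the pattern is not at this position.

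The libraries held between 37141666 and 104040073 counts, of which rRNA genes took 55.29 to 78.71%, since rRNA was not depleted. The 45 genes were counted in every library, from 57 counts (EIF2B4 in a HEK UL1 KO NO library) to 23721 counts (EEF1A1 in a HEK WT CN library). HEK WT NO replicate 3 stood apart from the other HEK WT NO libraries, with a TMM factor (the scaling for composition) of 1.396 against 0.690 and 0.622. The factors of the HEK UL1 KO NO libraries were 1.337, 1.087 and 1.149. The HEK293T label was set beside 5 genes that the line expresses (PAX2, NEFM, NEFL, INA and GATA3) and 5 markers of other cell types (PTPRC, CD3E, ALB, PECAM1 and KRT14), in CPM (counts scaled to the library total, corrected by TMM). Group means of the first 5 ran from 0.116 to 5.04 CPM in CN and from 0.267 to 6.27 CPM in NO, and those of the other 5 from 0.0199 to 0.540 CPM in CN and from 0.175 to 2.69 CPM in NO, so the ranges overlapped in both fractions. The lowest of the first 5 was INA, which fell in HEK UL1 KO CN by 4.60 on the log2 scale (adjusted p = 4.08e-07, edgeR). SNORD3A, a U3 snoRNA gene, marked the NO fraction of HEK WT (log2 fold change over CN 4.67, adjusted p = 0.000338, edgeR). ACTB, a cytoplasmic marker, was lower in NO of HEK WT by the same test (log2 fold change -0.86, adjusted p = 0.0133). GAPDH, the other cytoplasmic marker, was not called (log2 fold change -0.56, adjusted p = 0.0897).

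HNRNPUL1 itself was measured at 17.8, 15.4 and 18 CPM in HEK WT CN and at 4.75, 4.80 and 4.86 CPM in HEK UL1 KO CN. The groups did not overlap, and the log2 fold change was -1.83 ± 0.08 (SE, adjusted p = 2.12e-07). In NO it was 15.2, 21.6 and 9.30 CPM in HEK WT and 4.09, 3.86 and 3.57 CPM in HEK UL1 KO, with a log2 fold change of -2.00 (adjusted p = 0.00649) that was no longer called with total counts in place of TMM (-1.42, adjusted p = 0.258).

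Levels were compared between genes per kilobase of annotated exon in the CN fraction of HEK WT. EEF1A1, which carries aminoacyl-tRNA to the ribosome, was highest at 28 ± 1.23 CPM per kb (SD, n = 3). It was followed by EEF1B2 and EEF1G, subunits of the exchange factor of EEF1A, at 14.6 ± 0.819 and 14.6 ± 0.526 CPM per kb, whose ranges overlapped. EIF1AX, which scans for the start codon with EIF1, came next at 12.3 ± 1.15 CPM per kb, and its range overlapped with that of EEF2, the translocase, at 11.3 ± 0.749 CPM per kb. With the longest transcript as the length the order changed to EEF1A1, RACK1, EEF1B2 and PABPC1, so only the first place was the same under both lengths.

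Several of these values are uncertain because of near-identical copies. The 43 annotated EEF1A1 pseudogenes held 256% of the EEF1A1 counts over all 12 libraries, and EEF1A1P5 alone held 77.3%. EIF3CL, a near-identical copy of EIF3C, held 95.67 to 99.27% of the EIF3C count in each library, so the 2 genes cannot be told apart here. EIF1AXP1 held 57.9% of the EIF1AX count, and all copies of EIF4B, EEF1D, EEF1B2 and EIF5A held 85.5, 81.7, 74.9 and 71.3%. In contrast, the copies of RACK1, EIF3M, EIF3I, EIF5 and EIF3L held 0.259, 0.127, 0.414, 4.07 and 6.04%.

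The effect of the knock-out was first examined in the CN fraction. Of the 45 genes, 20 fell, 3 rose and 22 were not called at an adjusted p under 0.05 (edgeR's quasi-likelihood F test, adjusted over 27234 genes). Over all genes tested, 37.9% were called, 22.3% lower and 15.6% higher. Because the 45 genes are well counted, the 12662 genes with a mean of at least 100 counts are the closer background: 40.6% of these were lower and 14.9% higher, against 44.4% and 6.67% of the 45 genes. The share that fell was thus near that of other well-counted genes. The median log2 fold change of the 45 genes was -0.22, beside -0.20 for the well-counted genes and 0.04 for all genes tested. In 30 genes the libraries of the 2 genotypes did not overlap, 26 of them lower and 4 higher in HEK UL1 KO. These are 66.7% of the 45 genes, beside 66.4% of the well-counted genes and 52.8% of all genes tested.

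**Figure D1:**
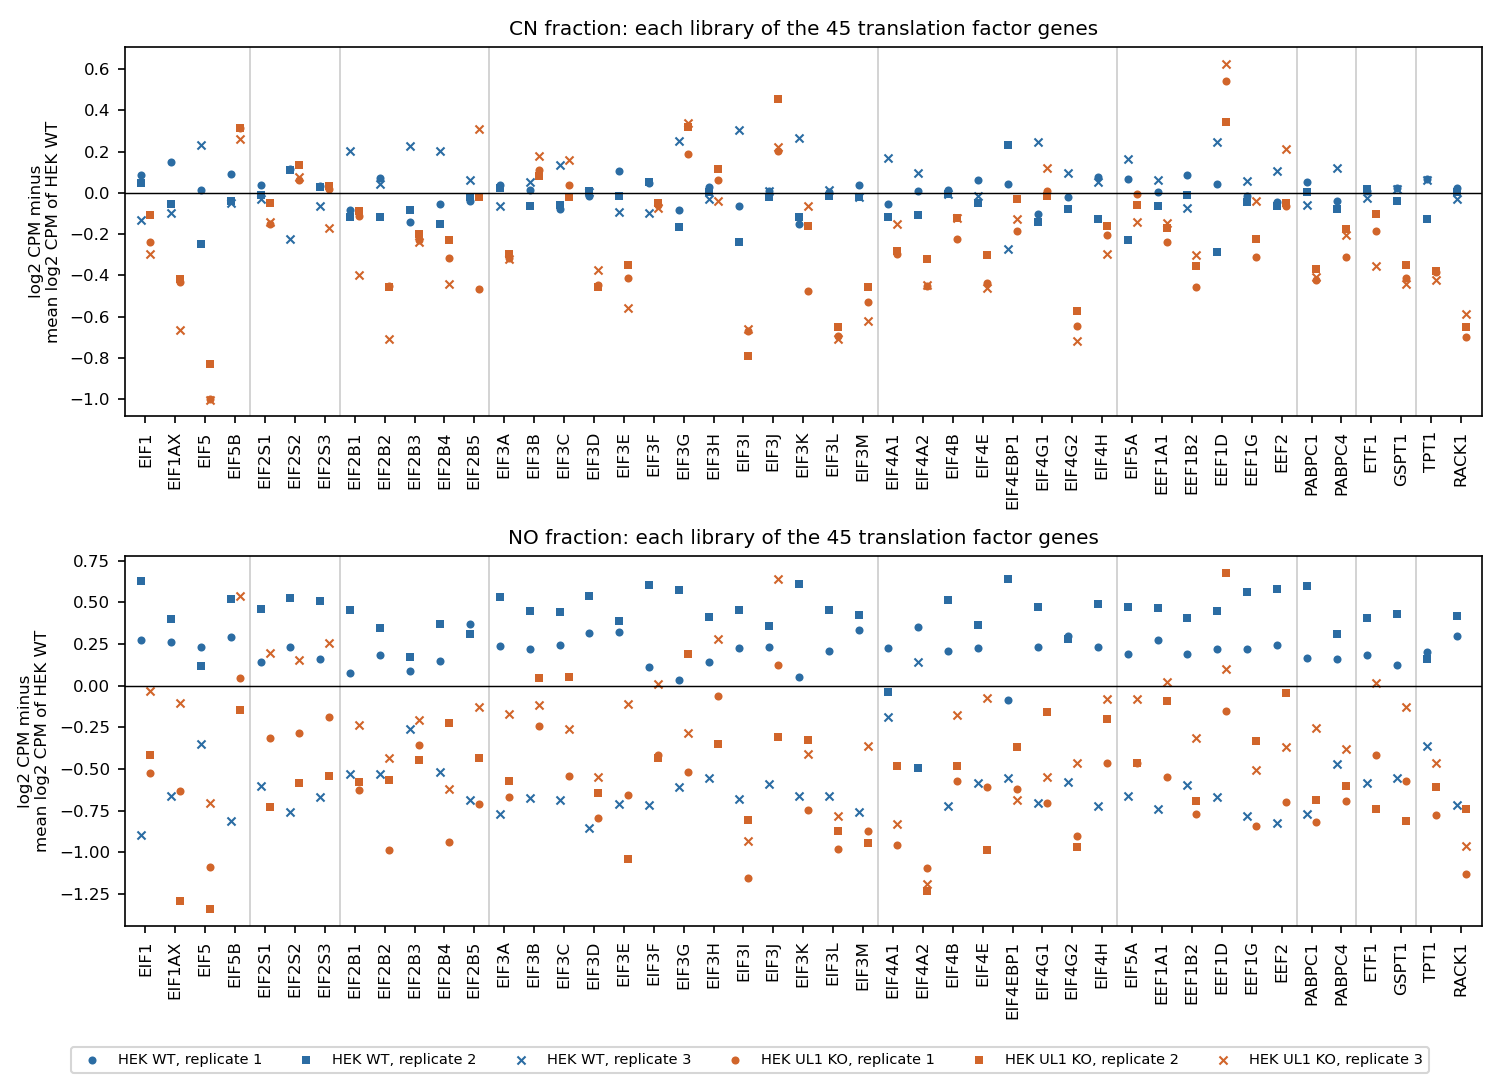
Each point is 1 library: log2 CPM of a gene minus the mean log2 CPM of the 3 HEK WT libraries of the same fraction (y axis) for the 45 genes in order of role (x axis; grey lines separate roles), in CN (top) and NO (bottom). In CN the libraries of the 2 genotypes do not overlap in 30 genes, a share near that of other well-counted genes. In NO, after TMM scaling, HEK WT replicate 3 (blue cross) is the lowest HEK WT library in 44 of the 45 genes.

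The largest fall was that of EIF5 (chr14:103334237-103345025, plus strand), the factor that triggers GTP hydrolysis by EIF2 once the start codon is found. Its 3 HEK WT CN libraries were at 23.8, 19.9 and 27.7 CPM and the 3 HEK UL1 KO CN libraries at 11.8, 13.3 and 11.8 CPM, without overlap. The log2 fold change was -0.95 ± 0.11 (SE, adjusted p = 0.000106), and EIF5 was called lower under all 16 settings tried, the reported ones included. The other genes of start site recognition moved in different directions. EIF1AX was at 60.0, 52.1 and 50.5 CPM in HEK WT and 40.0, 40.4 and 34.1 CPM in HEK UL1 KO, with a log2 fold change of -0.50 ± 0.09 (adjusted p = 0.00197). EIF5B, the GTPase that joins the ribosomal subunits, rose from 31.8, 29.0 and 28.8 CPM to 37.2, 37.2 and 35.8 CPM, a log2 fold change of 0.30 ± 0.07 (adjusted p = 0.00818). EIF1 was not called (log2 fold change -0.21, adjusted p = 0.0636), and its groups overlapped.

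Within EIF3, the scaffold that binds the small subunit, 6 of 13 subunits fell, 1 rose and 6 were not called. EIF3I and EIF3L showed the largest falls. EIF3I, a small subunit bound to EIF3B and EIF3G, was at 7.44, 6.59 and 9.59 CPM in HEK WT and 4.90, 4.49 and 4.91 CPM in HEK UL1 KO, with a log2 fold change of -0.72 ± 0.13 (SE, adjusted p = 0.00136). EIF3L, a subunit of the octamer core, was at 26.3, 25.9 and 26.4 CPM against 16.2, 16.7 and 16 CPM, a log2 fold change of -0.68 ± 0.06 (adjusted p = 2.55e-05). Both genes separated the genotypes completely and were called lower under all 16 settings. EIF3M, also of the core, was at 22.9, 22 and 21.9 CPM against 15.4, 16.2 and 14.5 CPM (log2 fold change -0.53 ± 0.07, adjusted p = 0.00022). EIF3E, EIF3D and EIF3A also fell, by 0.44, 0.42 and 0.31 on the log2 scale. Of the 8 subunits of the octamer core (A, C, E, F, H, K, L and M) 4 fell and 4 were not called, with a median log2 fold change of -0.27. Of the other 5 subunits 2 fell and 1 rose, and their median was 0.12.

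The riser was EIF3J, a loosely attached subunit at the mRNA entry channel. It was at 11.3, 11.1 and 11.3 CPM in HEK WT and 12.9, 15.4 and 13.1 CPM in HEK UL1 KO, with a log2 fold change of 0.30 ± 0.08 (SE, adjusted p = 0.0152). The call was lost without HEK UL1 KO replicate 2 (0.22, adjusted p = 0.073). The rises of EIF3J and EIF5B were also lost with DESeq2, and with GAPDH as the single reference gene both changes had the opposite sign (-0.0532 and -0.0587). EIF3B, EIF3C, EIF3G and EIF3H had positive fold changes that were not called, with adjusted p from 0.13 to 0.612.

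In the EIF4 group 5 of 8 genes fell and 3 were not called. EIF4G2, a relative of EIF4G that lacks the part that binds the cap-binding protein EIF4E, was at 90.9, 87.1 and 98.5 CPM in HEK WT and 58.8, 61.9 and 56.0 CPM in HEK UL1 KO. The log2 fold change was -0.65 ± 0.08 (SE, adjusted p = 0.000154), and the genotypes did not overlap. EIF4E itself fell from 18.6, 17.2 and 17.6 CPM to 13.2, 14.5 and 12.9 CPM (log2 fold change -0.40 ± 0.07, adjusted p = 0.00173). The RNA helicases EIF4A2 and EIF4A1 fell by 0.41 (adjusted p = 0.00219) and 0.25 (adjusted p = 0.0492) on the log2 scale, and EIF4H, their cofactor, by 0.22 (adjusted p = 0.0447). The calls of EIF4A1 and EIF4H lay at the threshold and held under only 6 and 4 of the 16 settings. EIF4G1, EIF4B and EIF4EBP1 were not called.

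Few of the EIF2 and EIF2B subunits were called. None of the 3 EIF2 subunits was called by the edgeR test, with log2 fold changes from -0.11 to 0.08, and none of the 3 had an unadjusted p under 0.05 or was called by DESeq2. All 5 EIF2B subunits had negative fold changes, of which only EIF2B2 passed the test: it was at 2.76, 2.42 and 2.69 CPM in HEK WT and 1.91, 1.91 and 1.60 CPM in HEK UL1 KO (log2 fold change -0.53 ± 0.13, SE, adjusted p = 0.00709).

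Among the elongation genes 1 of 6 fell and 1 rose. EEF1B2 was at 29.5, 27.6 and 26.4 CPM in HEK WT and 20.3, 21.8 and 22.6 CPM in HEK UL1 KO (log2 fold change -0.37 ± 0.08, SE, adjusted p = 0.00307). EEF1D, another subunit of the same exchange factor, was at 4.81, 3.83 and 5.54 CPM against 6.81, 5.93 and 7.21 CPM (0.49 ± 0.13, adjusted p = 0.0135), and its call was lost without HEK UL1 KO replicate 1 (0.45, adjusted p = 0.059) or replicate 3 (0.45, adjusted p = 0.0675). With TMM scaling the 2 subunits thus moved in opposite directions without overlap between the genotypes. The call of EEF1D was also lost with GAPDH as the single reference gene. EEF1G was not called, at 38.0, 37.3 and 39.9 CPM against 30.9, 32.9 and 37.3 CPM (log2 fold change -0.19, adjusted p = 0.0997). EEF1A1 was at 282, 269 and 294 CPM against 238, 250 and 254 CPM, which did not overlap but missed the threshold (log2 fold change -0.19 ± 0.09, adjusted p = 0.122). It was called lower by DESeq2 (-0.26, adjusted p = 0.047). EEF2 was at 44, 43.5 and 49.0 CPM against 43.5, 43.9 and 52.7 CPM, with overlapping groups (log2 fold change 0.04, adjusted p = 0.775).

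Of the remaining genes, RACK1 (chr5:181236897-181243906, minus strand), a scaffold on the small ribosomal subunit, fell most. It was at 57.8, 57.1 and 55.8 CPM in HEK WT and 35.1, 36.3 and 37.8 CPM in HEK UL1 KO, with a log2 fold change of -0.64 ± 0.07 (SE, adjusted p = 6.15e-05). TPT1, which encodes the abundant growth-related protein TCTP, was at 53.7, 46.9 and 53.5 CPM against 39.3, 39.5 and 38.3 CPM (-0.40 ± 0.08, adjusted p = 0.00242). PABPC1, the main cytoplasmic poly(A)-binding protein, was at 79.3, 76.8 and 73.6 CPM against 57.2, 59.2 and 57.7 CPM (-0.40 ± 0.07, adjusted p = 0.00153). None of these 3 overlapped between the genotypes. PABPC4 fell by 0.23 on the log2 scale (adjusted p = 0.0389). The termination GTPase GSPT1 was at 29.2, 27.9 and 29.0 CPM against 21.5, 22.5 and 21.1 CPM (-0.40 ± 0.07, adjusted p = 0.000982), while its partner ETF1, which recognises the stop codon, was not called (-0.21, adjusted p = 0.0573).

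Genes with and without the start motif fell. Of the 11 genes with C and at least 4 pyrimidines at the annotated start, 5 fell and 6 were not called, with a median log2 fold change of -0.24. Of the 24 genes without it, 10 fell and 2 rose, with a median of -0.22. Among the 12 genes known as TOP mRNAs 5 fell and 1 rose (median -0.19), and among the other 33 genes 15 fell and 2 rose (median -0.23). The difference between these groups was not tested.

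The size and direction of these changes depended on the scaling. With total counts in place of TMM, 7 of the 45 genes were called in CN, 4 lower and 3 higher, and the median of all genes moved from 0.04 to 0.24 on the log2 scale. Over all genes, 41.2% of the calls were higher in HEK UL1 KO with TMM, 68.2% with total counts and 10.7% with GAPDH as the reference. Relative to the median of all genes, 37 of the 45 genes lay below it with TMM, 35 with total counts and 36 with GAPDH. A change of scaling shifts all genes by about the same amount, so these counts could hardly differ and do not test the scaling. The median of the well-counted genes with TMM was itself -0.20. The 45 genes together took 0.551 ± 0.0286% of the counts outside rRNA in HEK WT CN and 0.506 ± 0.0159% in HEK UL1 KO CN (SD, n = 3), and a two-sided exact permutation test gave p = 0.1, which is the smallest value that 3 against 3 libraries can reach. In NO the shares were 0.294 ± 0.0208% and 0.297 ± 0.00986% (p = 0.9 in the same exact permutation test). Fewer transcripts per cell cannot be told apart from a change in the composition of the remaining RNA in such data.

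**Figure D2:**
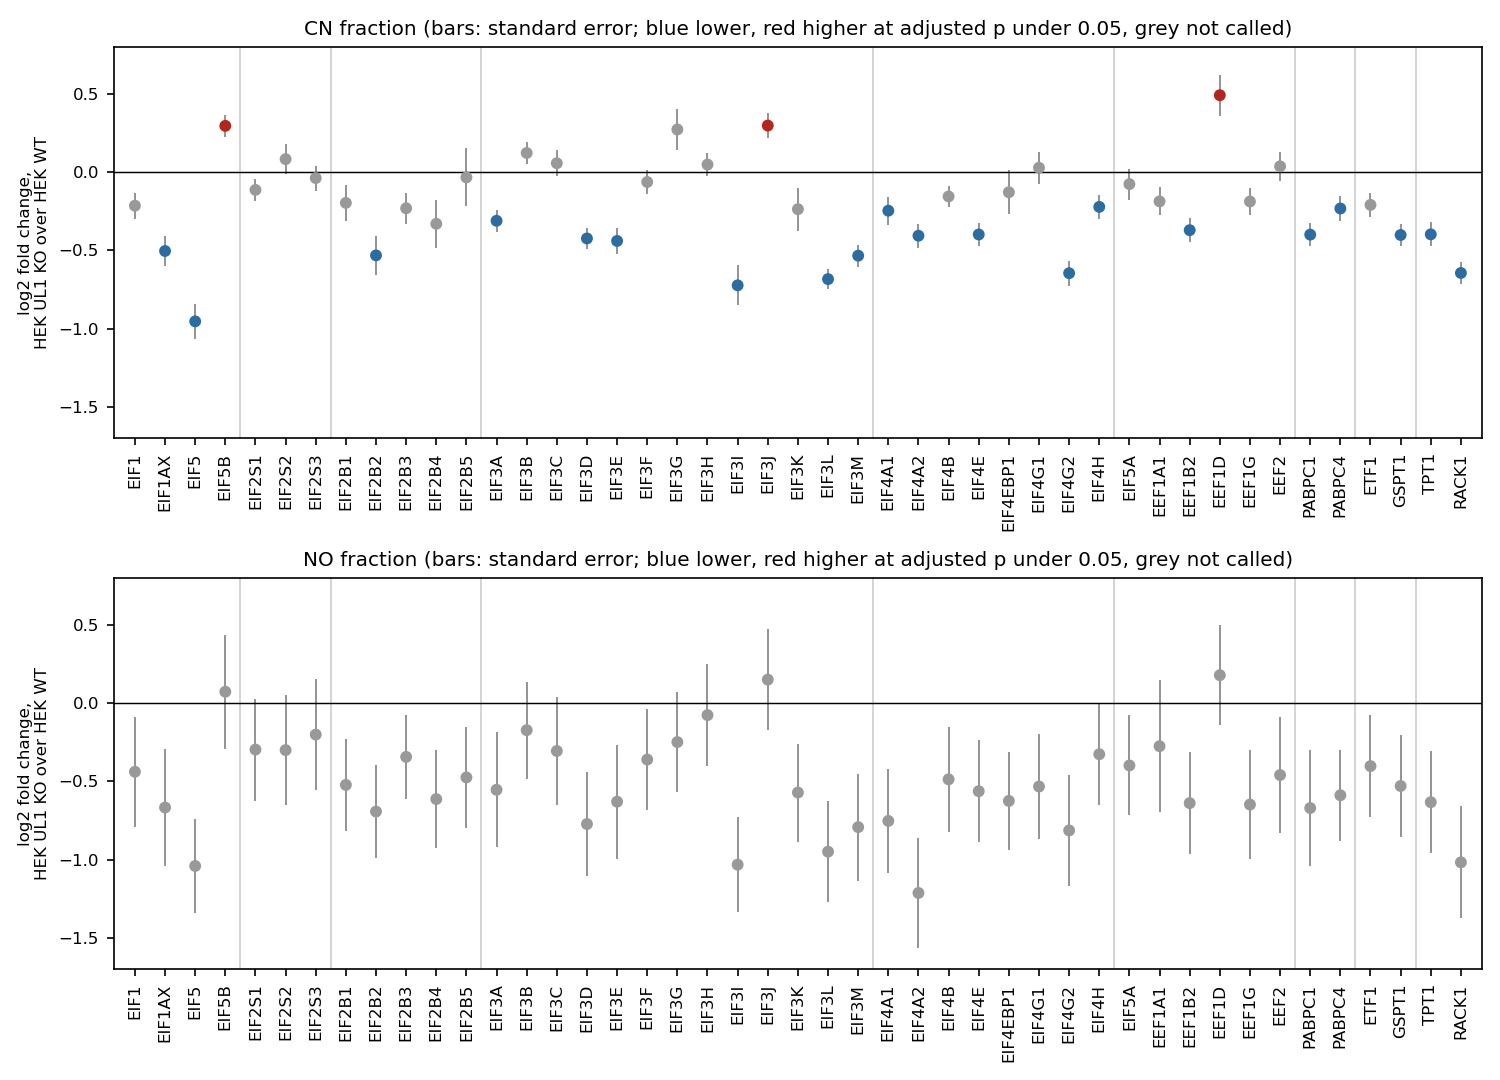
Log2 fold change of HEK UL1 KO over HEK WT (y axis) for each of the 45 genes in order of role (x axis), in CN (top) and NO (bottom), with bars for the standard error and colours for calls at an adjusted p under 0.05. In CN 20 genes are lower and 3 higher. In NO none is called, although 42 of the 45 values are negative with TMM scaling. With total counts in place of TMM the median in NO is 0.02.

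In the NO fraction the same comparison gave mostly negative changes with larger errors. None of the 45 genes was called by the edgeR test, 10 had an unadjusted p under 0.05, and DESeq2 called 5 lower. Over all 34836 genes tested, 0.939% were called, 0.574% lower and 0.365% higher. DESeq2 called 1082 genes over the whole table, 823 of them lower. For the unadjusted p no share over all genes is given here. The log2 fold change was negative in 42 of the 45 genes, with a median of -0.53, beside -0.25 for the 13719 genes with a mean of at least 100 counts and 0.00396 for all genes. This direction depended on the scaling. With total counts in place of TMM the median was 0.02 for the 45 genes and 0.40 for all genes. The median standard error of the 45 genes was 0.33 in NO and 0.08 in CN.

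The 7 genes without overlap between the genotypes in NO were EIF4A2, EIF5, EIF3I, RACK1, EIF3L, EIF4A1 and TPT1, all lower in HEK UL1 KO. They are 15.6% of the 45 genes, beside 22.7% of the genes with a mean of at least 100 counts and 20.1% of all genes tested. EIF4A2 was at 124, 68.9 and 107 CPM in HEK WT and 45.5, 41.4 and 42.5 CPM in HEK UL1 KO, with a log2 fold change of -1.21 ± 0.35 (SE, adjusted p = 0.11). EIF5 was at 23.2, 21.4 and 15.5 CPM against 9.28, 7.79 and 12.1 CPM (-1.04 ± 0.30, adjusted p = 0.109). RACK1 was at 76.4, 82.7 and 37.7 CPM against 28.3, 37.1 and 31.8 CPM (-1.02 ± 0.36, adjusted p = 0.179). In RACK1 the third HEK WT library lay just above the highest HEK UL1 KO library. As a share of all counts, before TMM, the 45 genes were highest in HEK WT replicate 3 (0.1279% against 0.1109 and 0.1087% in replicates 1 and 2). After TMM, whose factor applies to every gene of a library, replicate 3 was the lowest HEK WT library in 44 of the 45 genes. In 38 it then lay below the highest HEK UL1 KO library. Both other HEK WT libraries lay above every HEK UL1 KO library in 38 genes. PABPC1 was an example, at 65.5, 88.3 and 34.2 CPM in HEK WT and 33.0, 36.2 and 48.9 CPM in HEK UL1 KO. Without HEK WT NO replicate 3, 28 of the 45 genes were lower in HEK UL1 KO, and 9133 genes were called over the whole table in place of 327.

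The changes in the 2 fractions ranked the genes alike. Across the 45 genes Pearson's r between the log2 fold changes in CN and NO was 0.878 and Spearman's rho 0.886. These are descriptions over genes that share libraries, and genes are not independent replicates. The same correlation over all genes was not computed, so the agreement is not shown to be particular to the 45 genes. All 20 genes that fell in CN had negative values in NO, and the 3 that rose in CN (EEF1D, EIF3J and EIF5B) had the only positive values in NO. In the fit of all 12 libraries together the difference between the fractions was negative in 35 of the 45 genes, with a median of -0.11. No gene passed the test of the difference itself (interaction of genotype and fraction, edgeR over 37806 genes, 0.114% of which were called); none of the 45 had an unadjusted p under 0.05 and DESeq2 called none. The largest difference was that of EIF4A2, at -0.66 on the log2 scale (adjusted p = 1).

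The NO and CN fractions were then compared within each genotype. These values compare the composition of 2 RNA pools and not amounts per cell. In HEK WT 24 of the 45 genes were lower in NO than in CN, 2 were higher and 19 were not called, beside 52.8% of 29340 genes called, 20.9% lower and 31.9% higher. Of the 12750 genes with a mean of at least 100 counts 43.7% were lower, against 53.3% of the 45 genes. The median log2 fold change was -0.56, beside -0.45 for those well-counted genes. In HEK UL1 KO 42 genes were lower in NO, 1 was higher and 2 were not called. There 76.3% of 34468 genes were called, 35.6% lower and 40.7% higher. Of the 13722 well-counted genes 66.3% were lower there, against 93.3% of the 45 genes, and the median was -0.95 for the 45 genes beside -0.68. With total counts in place of TMM, 4 and 5 of the 45 genes were called in HEK WT and HEK UL1 KO, and in HEK WT 16 were called without CN replicate 3 and 17 without CN replicate 1. The 2 comparisons share no libraries, and the difference between them is the interaction given above.

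**Figure D3:**
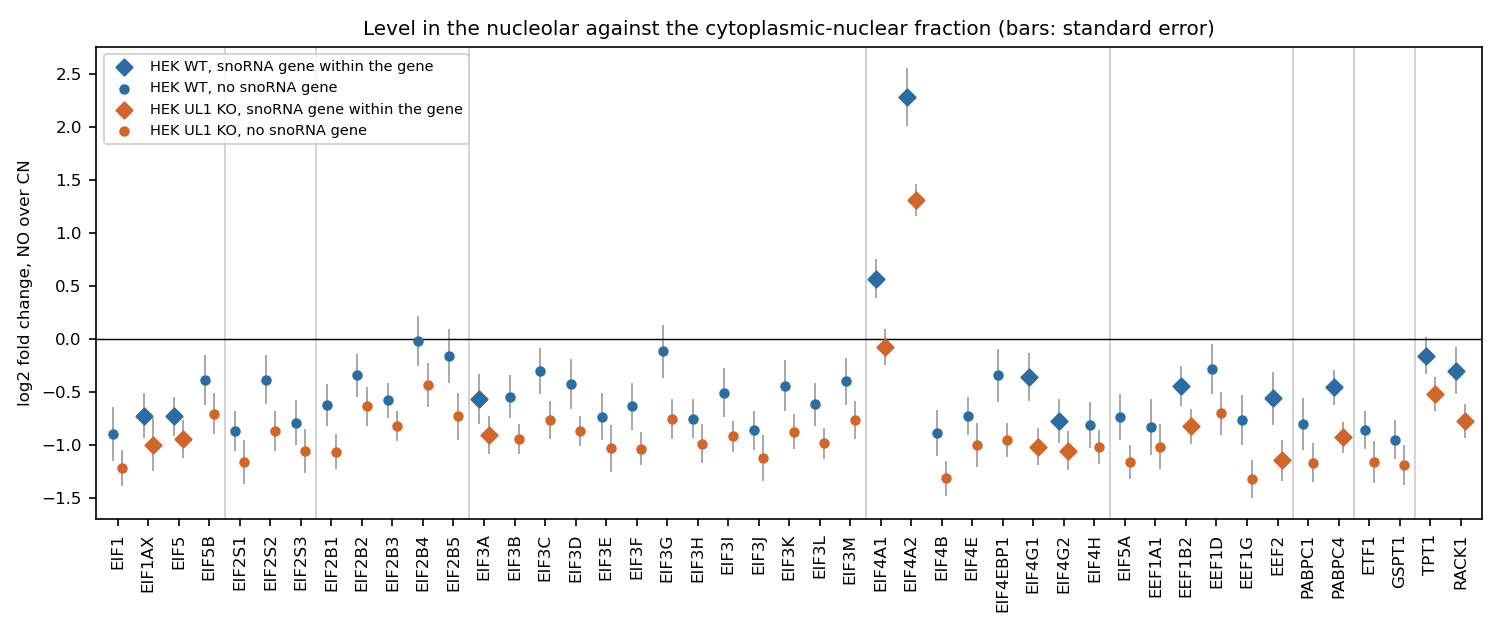
Log2 fold change of NO over CN (y axis) for each of the 45 genes (x axis, in order of role) in HEK WT (blue) and HEK UL1 KO (orange), with bars for the standard error and diamonds for the 12 genes with a snoRNA gene inside them. EIF4A2 stands above all others in both genotypes, at 2.28 in HEK WT and 1.31 in HEK UL1 KO.

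EIF4A2 (chr3:186783577-186789897, plus strand) was the exception in both genotypes. On the scale of the fit of all 12 libraries it was at 95.5, 52.0 and 87.3 CPM in HEK WT NO and 19.5, 17.8 and 21.5 CPM in HEK WT CN, and at 38.5, 31.8 and 35.2 CPM in HEK UL1 KO NO and 13.6, 14.9 and 13.4 CPM in HEK UL1 KO CN. Every NO library was thus above every CN library. The log2 fold change was 2.28 ± 0.27 (SE, adjusted p = 0.00133) in HEK WT and 1.31 ± 0.15 (adjusted p = 5.14e-05) in HEK UL1 KO. Its paralogue EIF4A1 was higher in NO of HEK WT (0.57 ± 0.18, adjusted p = 0.0256), a call that held under 6 of 14 settings and was lost with DESeq2 (0.30, adjusted p = 0.253), and in HEK UL1 KO its log2 fold change was -0.07 (adjusted p = 0.709). Of the 45 genes, EIF2B4 and EIF3G came next in HEK WT, at -0.02 and -0.12, and were not called.

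The genes lowest in NO of HEK WT were GSPT1, EIF1, EIF4B and EIF2S1. GSPT1 was at 16.9, 20.5 and 11.2 CPM in NO and 37.3, 35.3 and 38.6 CPM in CN on the same scale, a log2 fold change of -0.95 ± 0.18 (SE, adjusted p = 0.00446). EIF1 had a log2 fold change of -0.90 (adjusted p = 0.0161), EIF4B, a cofactor of the EIF4A helicases, of -0.88 (adjusted p = 0.00871), and EIF2S1, the EIF2 subunit that is phosphorylated under stress, of -0.87 (adjusted p = 0.00565). EEF1A1 and PABPC1 were also lower in NO, by -0.83 and -0.80 on the log2 scale, while RACK1 and TPT1 were not called (-0.30 and -0.16).

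Both genes that were higher in NO of HEK WT hold snoRNA genes. By the RefSeq positions, 21 snoRNA or scaRNA genes (the latter guide the modification of spliceosomal RNAs) lie on the same strand inside 12 of the 45 genes: EIF4A2 holds 5, EIF4A1 3, and EIF1AX, EIF3A, EIF4G1, EIF4G2, EIF5, EEF1B2, EEF2, PABPC4, TPT1 and RACK1 hold the others. In HEK WT 2 of the 12 hosts were higher and 4 lower in NO, with a median of -0.45, and of the 33 other genes 20 were lower and 13 were not called, with a median of -0.63. Of the well-counted genes 43.7% were lower and 12% higher in NO of HEK WT. In CN, 10 of the 12 hosts fell in HEK UL1 KO (median -0.38) and 10 of the 33 others (median -0.19). Over all genes tested 22.3% fell in CN, and of the well-counted genes 40.6%. Among the 10 hosts the calls of EIF4A1 and PABPC4 lay near the threshold (edgeR, adjusted p = 0.0492 and 0.0389). The hosts were compared after their values had been seen, and the difference was not tested.

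Of the 21 snoRNA genes 3 are printed, those lower in HEK UL1 KO NO at an adjusted p under 0.05. They were read from GRCh38 on the strand of the gene, 5′ to 3′, with capitals for the C box (TGATGA) and D box (CTGA) of SNORD95 and the ACA box of SNORA63 and SNORA31. SNORD95 lies in RACK1 at chr5:181243314-181243376 on the minus strand, SNORA63 in EIF4A2 at chr3:186787299-186787433 on the plus strand and SNORA31 in TPT1 at chr13:45337480-45337609 on the minus strand.
SNORD95: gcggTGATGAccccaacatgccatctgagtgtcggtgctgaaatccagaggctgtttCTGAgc
SNORA63: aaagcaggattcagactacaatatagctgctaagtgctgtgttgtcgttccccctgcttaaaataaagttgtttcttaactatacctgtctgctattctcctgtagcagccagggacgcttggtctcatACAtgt
SNORA31: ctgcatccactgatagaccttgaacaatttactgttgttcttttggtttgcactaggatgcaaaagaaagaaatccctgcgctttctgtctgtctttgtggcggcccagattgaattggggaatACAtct

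The comparison of NO with CN was limited to snoRNA genes with at least 10 counts in every library, because a gene that is high in NO alone can pass the filter on low counts through that fraction and then has to differ. In HEK WT 11 of the 21 genes met this limit and were higher in NO than in CN, with log2 fold changes from 2.41 to 4.70. In HEK UL1 KO 9 met it and were also higher in NO, by 1.67 to 4.63 on the log2 scale. Over all genes tested 31.9% were higher in NO in HEK WT and 40.7% in HEK UL1 KO. SNORD3A, not among the 21 genes, was higher in NO of HEK WT by 4.67. On the scale of the fit of all 12 libraries it was at 8190, 8741 and 8040 CPM in HEK WT NO. In HEK UL1 KO NO it was also lower, at 5265, 5741 and 3887 CPM, and was not called by the edgeR test. Whether snoRNA genes elsewhere differed from the 21 was not tested. In NO of HEK UL1 KO against HEK WT, 19 genes were tested, 18 of which had at least 10 counts in every library. These 18 had negative log2 fold changes from -1.61 to -0.40, and 3 passed the test, beside 0.574% of all genes tested that were lower. SNORA63 was at 9.96, 5.85 and 10.6 CPM in HEK WT NO and 3.13, 1.95 and 3.71 CPM in HEK UL1 KO NO (-1.59 ± 0.32, SE, adjusted p = 0.0247). SNORD95 was at 5.11, 3.81 and 5.26 CPM against 1.84, 2.45 and 1.10 CPM (-1.40 ± 0.31, adjusted p = 0.0391). SNORA31 was at 3.44, 1.36 and 3.02 CPM against 0.876, 0.588 and 1.10 CPM (-1.61 ± 0.35, adjusted p = 0.0387). None of these 3 overlapped between the genotypes, and in each of them HEK WT NO replicate 3 was not the lowest HEK WT library, unlike in RACK1 and TPT1. The number called in NO depended on the libraries and the fit: 16 were lower without HEK WT NO replicate 3, 9 without HEK WT NO replicate 2, 12 with DESeq2, and none without HEK WT NO replicate 1 or with total counts, although the median stayed at or below -0.95 in each of these fits. The number over all genes also moved. It was 200 lower with the reported settings, 5546 without HEK WT NO replicate 3, 156 without replicate 2 and 823 with DESeq2. Without replicate 1 it was 63, and with total counts 3. In CN 12 of the snoRNA genes passed the filter, and 6 of these fell: SNORA48 and SNORD10 of EIF4A1, SNORA81, SNORA63 and SNORA4 of EIF4A2, and SNORD97 of EIF4G2, by 0.81 to 1.55 on the log2 scale. Over all genes tested in CN 22.3% fell.

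**Figure D4:**
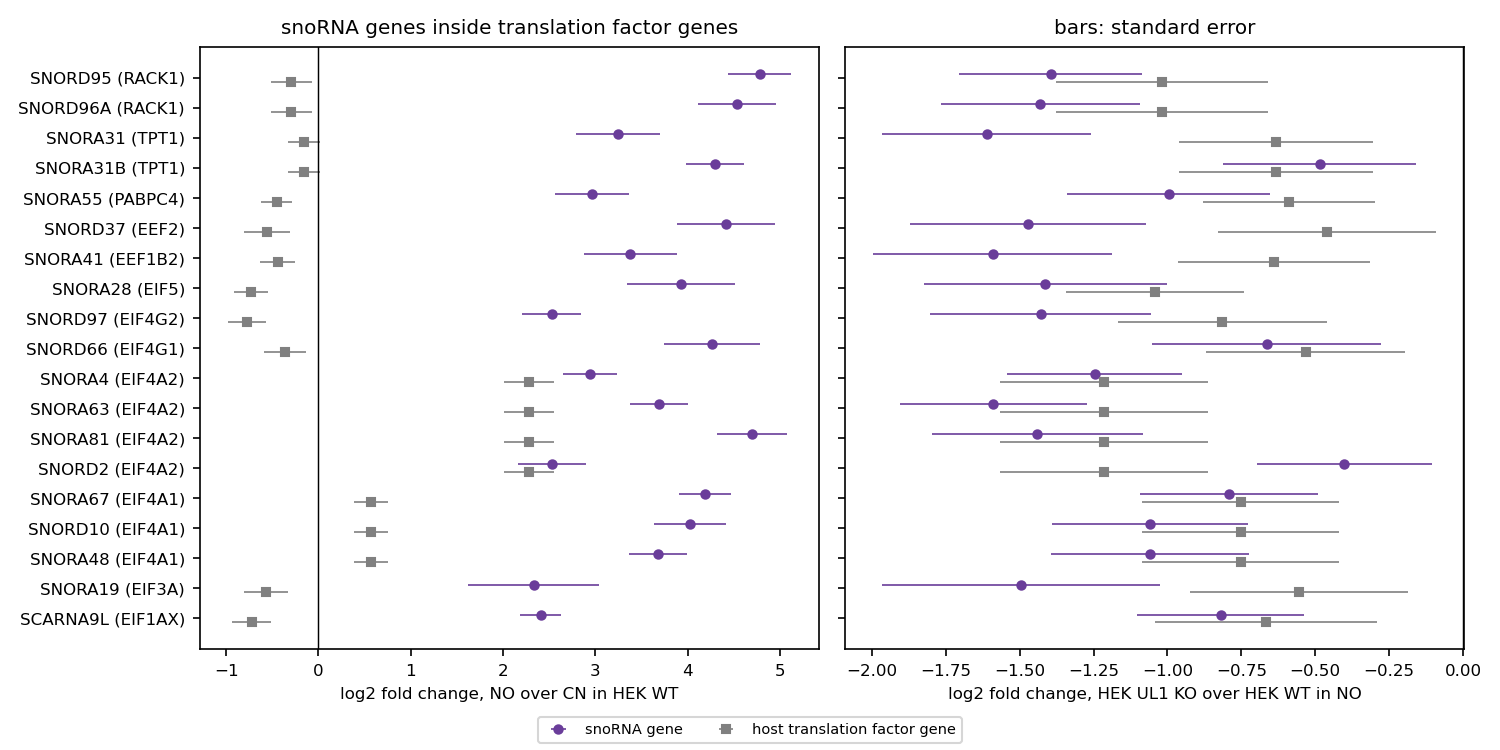
Log2 fold change (x axes) of the 19 tested snoRNA genes (purple) and of the gene that holds each of them (grey, host in parentheses on the y axis), for NO over CN in HEK WT (left) and HEK UL1 KO over HEK WT in NO (right), with bars for the standard error. The snoRNA genes lie between -1.61 and -0.40 on the right; on the left, genes that are high in NO alone are included, and those with at least 10 counts in every library lie between 2.41 and 4.70.

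The snoRNA genes of EIF4A2 and EIF4A1 overlap exons of their hosts. All 5 snoRNA genes in EIF4A2 (SNORD2, SNORA63B, SNORA81, SNORA63 and SNORA4) and all 3 in EIF4A1 (SNORA48, SNORD10 and SNORA67) lie wholly within an exon of at least one annotated host transcript in GENCODE release 44. The same holds for SNORA41 of EEF1B2, SNORA55 of PABPC4, SNORA31B of TPT1 and SNORD95 and SNORD96A of RACK1. SNORA81 was at 82.4, 37.3 and 72.6 CPM in HEK WT NO, against 124, 68.9 and 107 CPM for EIF4A2, and both were lowest in replicate 2. In HEK UL1 KO NO it was at 24.4, 26.2 and 20.2 CPM. In the HEK WT NO libraries SNORA31B had 973, 421 and 1185 counts, beside 2838, 2283 and 2917 for TPT1. SNORD96A had 359, 184 and 287 and SNORD95 199, 123 and 312 counts, beside 2975, 2673 and 2235 for RACK1. How reads that overlap both a snoRNA gene and an exon of its host were assigned is not given in the sources used here. The part of snoRNA reads in the counts of EIF4A2, EIF4A1, TPT1, RACK1 and the other hosts was not tested.

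Other genes of the pathway were read against the same background in CN, where 22.3% of all genes tested fell and 15.6% rose. Of the genes with a mean of at least 100 counts 40.6% fell there and 14.9% rose. Of 33 further translation factors 32 were tested in CN, of which 15 fell and 7 rose, with a median log2 fold change of -0.21. The largest falls were those of EIF5A2, DHX29 and EIF1B (-1.51, -1.06 and -0.96, adjusted p = 5.05e-05, 1.06e-05 and 0.00024), of which EIF5A2 and EIF1B are paralogues of EIF5A and EIF1 and DHX29 is a helicase for structured mRNAs. The largest rises were those of GSPT2, EEF1A2 and DHPS (2.38, 1.19 and 0.71, adjusted p = 0.000981, 0.000394 and 0.0191), of which GSPT2 and EEF1A2 are paralogues of GSPT1 and EEF1A1 and DHPS makes the hypusine of EIF5A. GSPT2 was low, at means of 0.0566 CPM in HEK WT and 0.300 CPM in HEK UL1 KO. Of 17 regulators of these factors 8 fell and 1 rose, with a median of -0.21. PPP1R15B, which directs the removal of phosphate from EIF2S1, fell by 0.81 on the log2 scale (adjusted p = 1.45e-05), LARP4, a poly(A)-associated protein, by 0.66 (adjusted p = 0.000161) and EEF2K, the kinase of EEF2, by 0.56 (adjusted p = 0.00231). EIF2AK4, the kinase of EIF2S1 that senses amino acids, was the riser (0.42, adjusted p = 0.00932). In NO 1 of the 31 further factors tested was lower, and the median log2 fold changes were -0.42 for these factors and -0.46 for the regulators.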

How the data were processed

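Total RNA of 12 libraries was sequenced in single reads of 75 bases without rRNA depletion (CORALL kit). According to the methods and the submitters' processing notes, the authors checked reads with FastQC 0.11.4, trimmed them with Cutadapt 3.7, aligned them to GRCh38 with STAR 2.7.8 (up to 20 alignments per read) and used featureCounts. What the authors deposited are raw gene counts, as 1 table for each fraction. Counting options, strand and annotation are not given in the sources used here. All 12 columns were matched to samples, and 0 columns were left out.

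Counts were fitted with R 4.3.3, edgeR 4.0.16 (quasi-likelihood F test, filterByExpr with minimum count 10 and minimum total 15, TMM over all genes, Benjamini-Hochberg adjustment over all genes tested, threshold 0.05) with limma 3.58.1; DESeq2 1.42.0 was an alternative. The tests were HEK UL1 KO against HEK WT within fractions, NO against CN within genotypes, and the interaction in all 12 libraries. CPM are TMM-scaled. Procedures were tested on simulated data. No 2 libraries were duplicates: chi-square per gene between replicates was at least 17.07. Depth is given as total counts; the spread between replicates exceeds counting error.

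The genes and lists were chosen with earlier results of these data known. Named genes were the 8 largest called rises and falls in CN and in NO, the 4 largest and 4 smallest NO to CN changes in HEK WT, up to 8 members called in the interaction, the 4 highest per length, HNRNPUL1, and the 3 largest called rises and falls among further factors and regulators. Other genes, among them EIF4E, PABPC1, TPT1, EEF2 and the snoRNA genes, were named after their values were seen. Positions are RefSeq GRCh38.p14, and exons GENCODE release 44. Figures were drawn with matplotlib 3.10.9 in Python 3.11.15. Alternatives were DESeq2, total counts, TMM without rRNA genes, DESeq2 size factors, no filter, at least 10 counts in every library, a replicate block, all 12 libraries in one fit, GAPDH as reference in CN, and leaving out each library; the same fits of the snoRNA genes were added after the data were seen.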

Additional observations from a re-analysis of the deposited data

How the results depend on the processing

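In CN, 23 of the 45 genes were called with the reported settings, 7 with total counts in place of TMM and 3 with all 12 libraries in one fit, and leaving out 1 library gave 18 to 23. In NO none was called with edgeR, 5 with DESeq2, 5 with all 12 libraries in one fit and 1 without a filter, and leaving out 1 library gave 0 to 28, the highest without HEK WT NO replicate 3. For NO against CN, 26 genes were called in HEK WT and 43 in HEK UL1 KO, 4 and 5 with total counts, and leaving out 1 library gave 16 to 37 and 41 to 44. The lowest values in HEK WT came without CN replicate 3 (16) and CN replicate 1 (17). No gene was called in the interaction under any setting tried. With GAPDH as the single reference, 31 genes were called in CN, all lower, and EIF3J and EIF5B reversed to -0.0532 and -0.0587. Total counts moved the median of all genes in NO from 0.00396 to 0.40, in HEK WT from 0.02 to 0.37 and in HEK UL1 KO from 0.03 to 0.79, and the share of calls that were higher from 60.4 to 91.3% in HEK WT and from 53.3 to 95.7% in HEK UL1 KO. The cause of these shifts was not tested. The fits of genes named in CN gave the same call 197 times, where a change of sign between uncalled fits was counted as the same. In 23 fits the call was lost, in 3 a call was gained, and 2 were the reversals with GAPDH.

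The replicate numbers did not pair the libraries: deviations of same-numbered libraries correlated at -0.0368 to -0.255 in CN and -0.235 to -0.48 in NO, and no library correlated best with its own number. With the replicate block 21 genes were called in CN, 0 in NO, 18 and 42 for NO against CN in HEK WT and HEK UL1 KO, and 0 in the interaction. Member counts were lowest, down to 57 per library, for EIF2B4.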
